A study of Mus musculus with 6 samples.

Results

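The genes described here encode the surface ligands and receptors through which macrophages restrain or license T cells and signal whether a cell may be engulfed. They were listed by gene name for the PD-1, CTLA-4, CD28, CD47 and TIM-3 axes. Of the 10 genes listed (Cd274, Pdcd1lg2, Cd80, Cd86, Sirpa, Cd47, Vsir, Havcr2, Lgals9 and Pvr), 9 were matched by symbol among the 17313 genes of the table, and all 9 were among the 13260 genes with enough signal to test. Pdcd1lg2, which encodes the second PD-1 ligand, PD-L2, was not analysed here.

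RNA was sequenced from macrophages grown in culture from the marrow of C57BL/6 mice. All mice in both groups carried floxed Hdac2 alleles (Hdac2fl/fl) and had received LLC1 cells, a Lewis lung carcinoma line, into a vein, with marrow harvested on day 20. The control group (WT, 3 libraries) had no Cre, so its alleles were floxed but not recombined. The other group (KO, 3 libraries, Hdac2fl/fLysMCre) carried LysMCre, a Cre recombinase expressed from the lysozyme gene of myeloid cells, so that deletion is limited to cells that use this gene. HDAC2 is a histone deacetylase, and the comparison asks how its inactivation changes macrophages of tumour-bearing mice. Ages were not used here, and the labels do not tie a library to an animal, so the p-values measure the spread between these libraries, which may be technical.

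PD-L1 (Cd274) engages PD-1 on T cells and dampens their response. CD80 and CD86 engage CD28 as the costimulatory signal and CTLA-4 as an inhibitory one, and CD80 can also bind PD-L1 on the same membrane, which limits access of PD-L1 to PD-1. CD47 is the widely expressed signal that restrains engulfment when it meets SIRPA on a macrophage, and VISTA, TIM-3, galectin-9 and the poliovirus receptor belong to further inhibitory axes.

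Expression is given in scaled counts, the rounded read counts of a gene after a correction for library size, with library totals from 5704313 to 5837994. Hdac2 stood at 534, 482 and 518 scaled counts in WT 1, WT 2 and WT 3, against 392, 387 and 375 in KO 1, KO 2 and KO 3, without overlap, with KO at 0.752 of WT on average. The labels do not name the deleted exon, and reads from the exons left in place would still be counted. What share of the cells carried recombined alleles was not tested. WT 1 stood apart from the other WT libraries. Xist, the RNA of the inactive X chromosome, was at 5243 in WT 1, 0 in WT 2, 74 in WT 3 and between 3298 and 4997 in KO, and 4 Y-linked genes were highest in WT 2 and WT 3. WT 1 and WT 3 held RNA of both kinds. Whether WT 1 holds RNA of several animals, or belongs under another label, is not settled by the labels and was not tested, and this doubt attaches to every value with or without it. Hdac2 itself was highest in WT 1, with a log2 difference of -0.47 against WT 1 alone. Genotype and this difference in sex-linked RNA therefore overlap, and without WT 1 they cannot be told apart. For 63.4% of all tested genes WT 1 lay nearer to the KO mean than to the mean of WT 2 and WT 3. The same held for 8 of the 9 genes described here, and for Lgals9 both distances were equal. For most genes the difference is therefore also given without WT 1, against WT 1 alone, or both. The comparison with WT 1 alone has a single WT library, so its intervals and p-values rest on the spread among KO libraries and assume that WT varies alike.

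The stretches of DNA before the start sites of Cd274, Cd47, Vsir and Cd80 are shown first, because these genes had a window and transcript levels that did not overlap between the groups, lower in KO for the first 3 and higher for Cd80. RefSeq (GRCm38.p6) gave 250 bases before the start for 7 of the 10 genes, and Cd86, Sirpa and Pvr had no entry. The windows are chr19:29367188-29367437, chr16:49855404-49855653, chr10:60346601-60346850 and chr16:38458683-38458932, all on the plus strand and written 5′ to 3′. Capitals mark matches on either strand to the GC box GGGCGG bound by SP1-type factors, the interferon-stimulated response core TTCNNTTTC, the GAS core TTCNNNGAA and the AP-1 motif TGANTCA.
Cd274: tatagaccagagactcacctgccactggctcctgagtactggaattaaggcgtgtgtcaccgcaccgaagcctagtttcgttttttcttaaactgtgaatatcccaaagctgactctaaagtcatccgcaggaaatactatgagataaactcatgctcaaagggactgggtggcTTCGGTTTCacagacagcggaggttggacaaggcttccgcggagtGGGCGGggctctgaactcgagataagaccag
Cd47: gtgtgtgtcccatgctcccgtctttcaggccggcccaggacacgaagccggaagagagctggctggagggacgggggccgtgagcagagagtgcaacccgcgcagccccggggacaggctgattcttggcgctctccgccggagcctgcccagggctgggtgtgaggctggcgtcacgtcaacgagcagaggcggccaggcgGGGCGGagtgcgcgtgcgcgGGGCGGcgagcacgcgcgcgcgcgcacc
Vsir: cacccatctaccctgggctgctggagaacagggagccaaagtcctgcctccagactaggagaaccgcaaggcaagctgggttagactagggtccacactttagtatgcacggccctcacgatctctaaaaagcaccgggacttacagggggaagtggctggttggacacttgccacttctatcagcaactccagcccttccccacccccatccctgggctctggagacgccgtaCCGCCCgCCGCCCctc
Cd80: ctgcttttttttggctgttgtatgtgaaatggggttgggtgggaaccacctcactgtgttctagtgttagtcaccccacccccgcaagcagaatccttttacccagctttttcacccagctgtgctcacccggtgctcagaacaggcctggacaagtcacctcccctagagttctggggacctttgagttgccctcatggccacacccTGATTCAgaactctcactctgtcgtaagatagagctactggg

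The Cd274 window held 1 GC box, beginning at position -31, and 1 interferon-stimulated response core, at -76, with -1 the base just before the start. The GC boxes of Cd47 began at -48 and -28, those of Vsir at -16 and -9, both of the latter on the reverse strand. The Cd80 window had no match to the GC box and 1 to AP-1, at -42. Across 32851 such windows, 32.7% held the GC box, 7.13% the interferon-stimulated response core, 7.02% the GAS core and 6.75% AP-1. Among the other genes with a window, Lgals9 had an interferon-stimulated response core at -54, Havcr2 an AP-1 match at -200, and Pdcd1lg2 no match. The windows were 50.4% G and C for Cd274, 73.2% for Cd47, 60.4% for Vsir and 52.8% for Cd80, against a median of 52.4% over all windows. The windows of Cd47 and Cd80 lie inside the genes as the deposited table bounds them, since RefSeq and the table give different first exons. The Cd274 window overlaps the neighbouring gene Plgrkt, which reaches 29367390 on the opposite strand. Its interferon-stimulated response core lies in that overlap, and which gene it might serve was not tested. A match is a string of letters and was not tested as a binding site.

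Under the test across all genes, no gene of the 9 passed. Called genes were 0 of 13260 (0.0%) at an adjusted p under 0.05, using limma on log2(scaled count + 1) with Benjamini-Hochberg adjustment. At an unadjusted p under 0.05, 2 of the 9 were higher in KO (Cd80 and Cd86) and 4 lower (Cd274, Cd47, Vsir and Sirpa), where 14.7% of all tested genes (1947) were higher and 9.68% (1283) lower. For those 4 lower genes the highest KO value was under the lowest WT value, and for Cd80 the order was reversed. Over all tested genes such separation below occurred in 13.4% and above in 16.1%. The median log2 difference of the 9 genes was -0.04, and that of all tested genes was -0.0046. Without WT 1, 5 of the 9 genes passed, Cd80 and Cd86 as higher and Cd274, Vsir and Cd47 as lower. In that fit 12.8% of all tested genes were called higher and 5.07% lower.

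**Figure D1:**
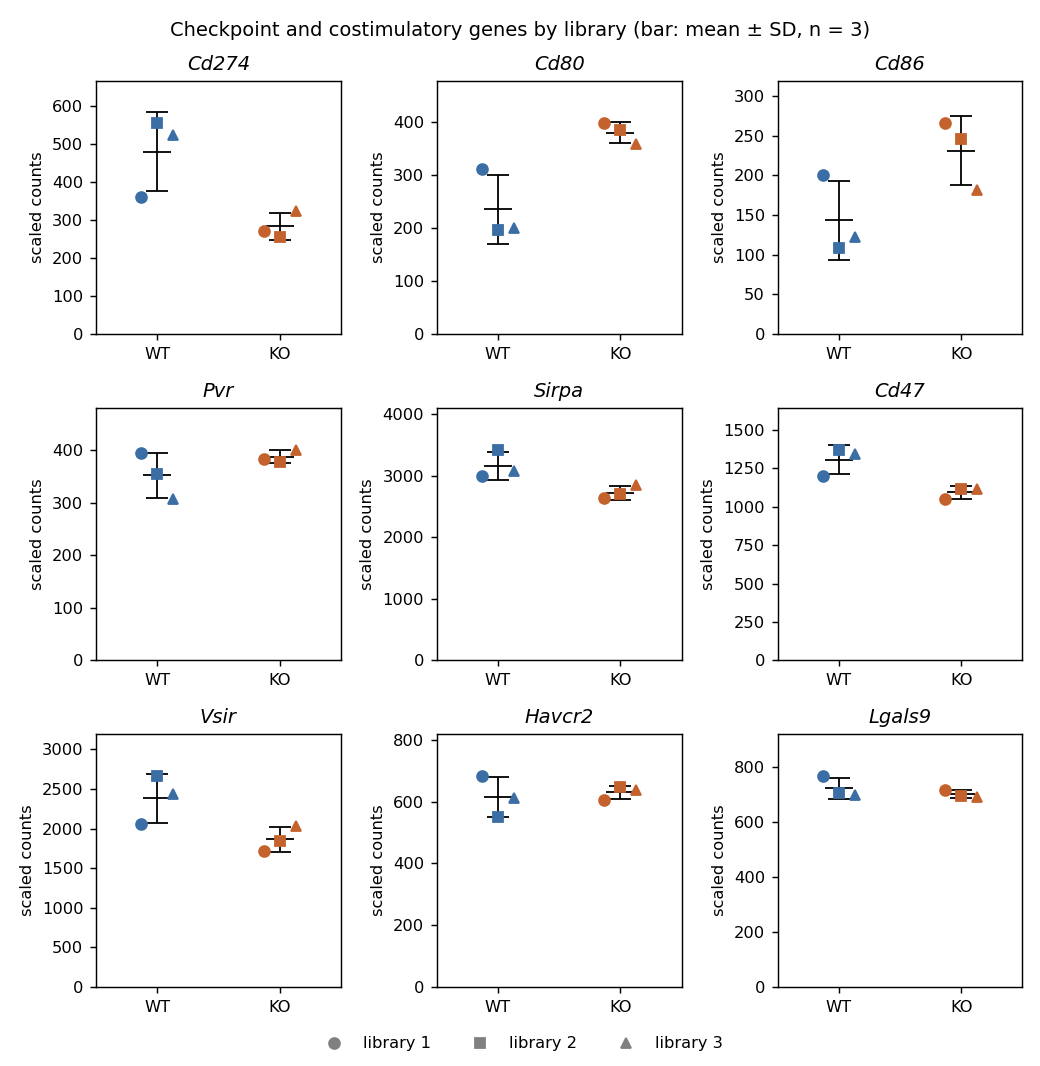
Scaled counts (vertical axes, linear from 0) of the 9 genes in each WT and KO library. Points are libraries, with the shape giving the library number, and bars are mean ± SD (n = 3). Cd274, Sirpa, Cd47 and Vsir have all KO points below all WT points, Cd80 has them above, and the remaining 4 genes overlap.

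Cd274, the PD-L1 gene (ENSMUSG00000016496, chromosome 19, 29367455 to 29388095, mm10), was at 361, 555 and 523 scaled counts in WT 1, WT 2 and WT 3. The KO libraries, in the order KO 1, KO 2 and KO 3, held 271, 256 and 324. All KO libraries lay below all WT libraries, and WT 1 lay between WT 3 and the highest KO library. The means were 480 ± 104 and 284 ± 35.7 (SD, n = 3 each), so KO stood at 0.591 of WT. The log2 difference was -0.74 ± 0.18 (SE), with a limma adjusted p of 0.158 and an exact permutation p of 0.1, which is the smallest two-sided p that 3 against 3 allows. Without WT 1 it was -0.93 ± 0.11 (limma adjusted p = 0.0043). Against WT 1 alone it was -0.35, with a 95% interval from -0.77 to 0.06. An antisense transcript, AC119228.1, overlaps the gene and had no row of its own, and the counting by strand is not stated.

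Cd80 (ENSMUSG00000075122, chromosome 16, 38455561 to 38496335) encodes the costimulatory ligand with the higher affinity for CTLA-4. Its WT values were 311, 196 and 200 scaled counts, against KO values of 398, 385 and 358. The groups did not overlap, and WT 1 was the highest of the WT libraries. The means were 236 ± 65.3 and 380 ± 20.4 (SD, n = 3), a KO level of 1.61 times WT. The log2 difference was 0.72 ± 0.19 (limma adjusted p = 0.158, exact permutation p = 0.1). It was 0.94 ± 0.077 without WT 1 (limma adjusted p = 0.0012). Against WT 1 alone it was 0.29, with a 95% interval from 0.05 to 0.53 and a limma adjusted p of 0.79.

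Cd86 (ENSMUSG00000022901, chromosome 16, 36603869 to 36666081), the other ligand of CD28 and CTLA-4, lies on the same chromosome as Cd80. Its values were 200, 108 and 122 scaled counts in WT against 266, 246 and 182 in KO. KO 3 lay below WT 1, so the groups overlapped. The KO mean was again 1.61 times the WT mean, 231 ± 43.9 against 143 ± 49.6 (SD, n = 3), with a log2 difference of 0.72 ± 0.26 (limma adjusted p = 0.175, exact permutation p = 0.2). Without WT 1 the difference was 0.99 ± 0.18 (limma adjusted p = 0.0175), and against WT 1 alone 0.19, with a 95% interval from -0.45 to 0.83.

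The balance between these genes can be read within a library, where the scaling factor cancels. The ratio of Cd274 to Cd80 scaled counts was 1.16, 2.83 and 2.62 across WT, against 0.681, 0.665 and 0.905 across KO. Cd274 thus exceeded Cd80 in every WT library and lay below it in every KO library. Each gene was already separated, in opposite directions, so their ratio had to be separated too and adds no evidence. The WT 1 ratio lay nearer to that of KO 3 than to those of WT 2 and WT 3. The mean ratio was 2.20 ± 0.909 in WT and 0.75 ± 0.134 in KO (SD, n = 3). The ratio of Cd86 to Cd80 overlapped between the groups, at 0.643, 0.551 and 0.61 in WT against 0.668, 0.639 and 0.508 in KO. Ratios of counts between genes depend on their lengths, which were close here, at 3622 exonic bases for Cd274, 3703 for Cd80 and 3661 for Cd86.

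**Figure D2:**
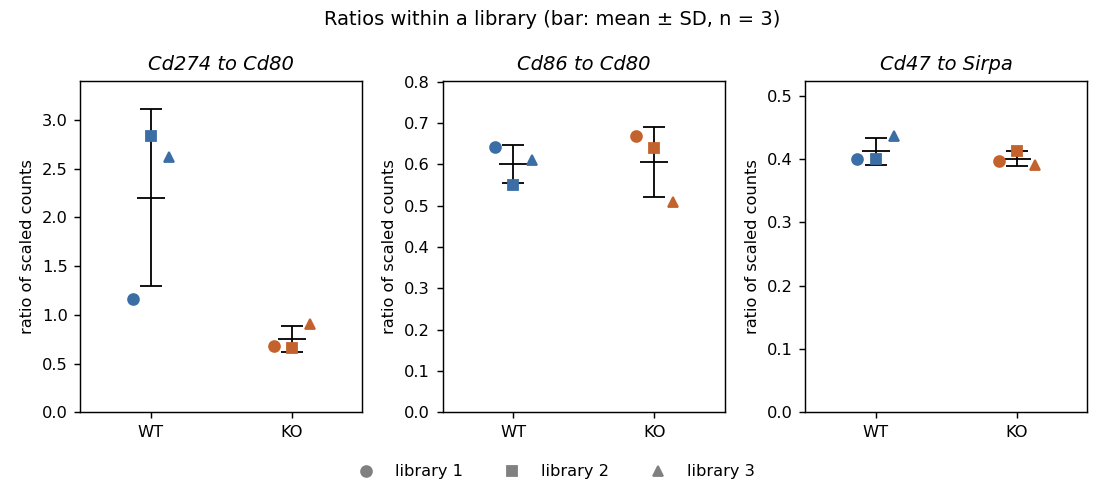
Ratio of scaled counts of 2 genes within each library (vertical axes, linear from 0), with WT and KO on the horizontal axes. Points are libraries and bars are mean ± SD (n = 3). The Cd274 to Cd80 ratio is above 1 in all WT points and below 1 in all KO points, while Cd86 to Cd80 and Cd47 to Sirpa overlap.

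On the CD47 axis, Sirpa (ENSMUSG00000037902, chromosome 2, 129592835 to 129632228), the inhibitory receptor of macrophages for CD47, was at 2992, 3428 and 3084 scaled counts in WT against 2636, 2699 and 2856 in KO. The groups did not overlap, and KO averaged 0.862 of WT, 2730 ± 113 against 3168 ± 230 (SD, n = 3). The log2 difference was -0.21 ± 0.069 (limma adjusted p = 0.16, exact permutation p = 0.1), and -0.08 under cyclic loess, a scaling that removes shifts tied to abundance. It did not pass without WT 1 either, at -0.25 ± 0.073 (limma adjusted p = 0.0666). Against WT 1 alone it was -0.13, with a 95% interval from -0.34 to 0.07. The SIRP beta genes Sirpb1a, Sirpb1b and Sirpb1c, activating relatives whose reads can be shared with close copies, lay between 36 and 67 in every library, and 2 of the 3 were lower in the KO mean of log2 values (all 3 under cyclic loess).

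Cd47 itself (ENSMUSG00000055447, chromosome 16, 49800533 to 49915010) was at 1197, 1371 and 1345 scaled counts in WT against 1047, 1116 and 1117 in KO, again without overlap. The means were 1304 ± 93.9 and 1093 ± 40.1 (SD, n = 3), a KO level of 0.838 of WT. KO minus WT on the log2 scale was -0.25 ± 0.066 (limma adjusted p = 0.158, exact permutation p = 0.1). Without WT 1 it passed at -0.31 ± 0.056 (limma adjusted p = 0.0158), and against WT 1 alone it was -0.13, with a 95% interval from -0.31 to 0.05. The ratio of Cd47 to Sirpa scaled counts lay between 0.391 and 0.436 in all 6 libraries and overlapped between the groups.

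Vsir (ENSMUSG00000020101, chromosome 10, 60346851 to 60372684) encodes VISTA, an inhibitory B7 family protein abundant on myeloid cells. It was at 2052, 2661 and 2431 scaled counts in WT against 1720, 1839 and 2032 in KO. The groups were separated by a narrow gap, between WT 1 and KO 3. The means were 2381 ± 308 and 1864 ± 158 (SD, n = 3), so KO stood at 0.783 of WT. KO minus WT on the log2 scale was -0.35 ± 0.11 (limma adjusted p = 0.159, exact permutation p = 0.1), and -0.23 under cyclic loess. Without WT 1 it passed at -0.45 ± 0.088 (limma adjusted p = 0.0215), and against WT 1 alone it was -0.14, with a 95% interval from -0.44 to 0.15. Vsir lies within the span of Cdh23 on the opposite strand, which was at 4 to 14 in the 6 libraries.

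The TIM-3 pair overlapped between the groups. Havcr2 (ENSMUSG00000020399, chromosome 11, 46454935 to 46481255), which encodes TIM-3, a receptor that restrains myeloid and T cell responses, was at 683, 552 and 612 scaled counts in WT against 607, 648 and 637 in KO. The log2 difference was 0.04, with a 95% interval from -0.17 to 0.24 (limma adjusted p = 0.818, exact permutation p = 0.8). Its sign depended on WT 1 and WT 2, at -0.12 against WT 1 alone and -0.036 without WT 2. Lgals9 (ENSMUSG00000001123, chromosome 11, 78962974 to 78984946), which encodes galectin-9, a lectin that binds TIM-3, was at 767, 704 and 698 in WT against 717, 694 and 692 in KO. Its log2 difference was -0.04, with a 95% interval from -0.17 to 0.09 (limma adjusted p = 0.662, exact permutation p = 0.5), and 0.0061 under cyclic loess. These intervals exclude differences in either gene as large as that of Cd274 or Cd80 in the same fit, but not a small one.

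Pvr (ENSMUSG00000040511, chromosome 7, 19903578 to 19921160) encodes the poliovirus receptor, ligand of TIGIT, CD226 and CD96. It was at 394, 355 and 307 scaled counts in WT against 383, 378 and 401 in KO, with WT 1 inside the KO range. KO minus WT on the log2 scale was 0.14, with a 95% interval from -0.09 to 0.38 (limma adjusted p = 0.406, exact permutation p = 0.3), and -0.025 against WT 1 alone. An antisense transcript, Gm16251, and a pseudogene, Gm16184, overlap Pvr and had no row of their own.

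**Figure D3:**
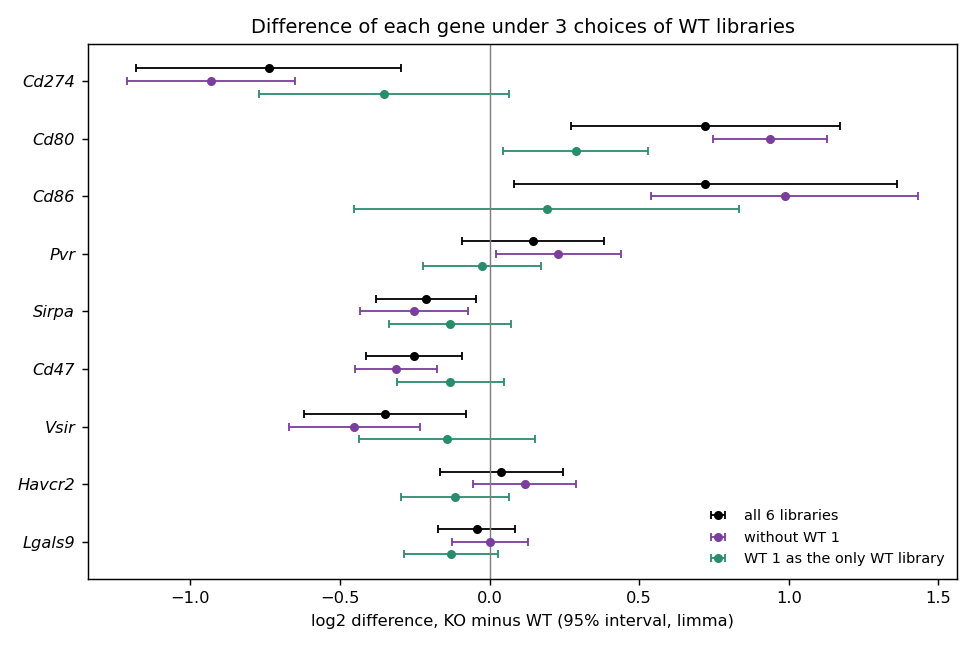
Log2 difference between KO and WT (horizontal axis, KO minus WT) for each of the 9 genes with its 95% limma interval, from all 6 libraries, without WT 1, and with WT 1 as the only WT library. Differences of Cd274, Cd80, Cd86, Cd47 and Vsir are larger without WT 1 and smaller against WT 1 alone, as for Cd274 at -0.93 and -0.35.

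Levels were compared between genes per kilobase of exon, using the union of exons in GENCODE M21. In WT the order was Sirpa at 645 ± 46.8, Vsir at 475 ± 61.3, Lgals9 at 338 ± 17.9, Havcr2 at 226 ± 24.1 and Cd47 at 208 ± 15.0 scaled counts per kilobase (SD, n = 3). Cd274 followed at 132 ± 28.7, then Cd80 at 63.6 ± 17.6, Pvr at 57.5 ± 7.12 and Cd86 at 39.2 ± 13.5. The inhibitory genes Sirpa and Vsir thus had the highest levels and the costimulatory pair lay among the lowest. The WT ranges of Havcr2 and Cd47 and of Cd80 and Pvr overlapped and their order varied between libraries, so these neighbours do not differ beyond their spread. Pvr and Cd86 had overlapping WT ranges, but Pvr was above Cd86 within every WT library. In KO, Cd80 at 103 ± 5.51 stood above Cd274 at 78.3 ± 9.86 in every library, the reverse of their order in every WT library. This restates the ratio of their counts above, as their lengths are close. Pvr and Cd86, at 63.3 ± 1.98 and 63.2 ± 12, had overlapping KO ranges, and no other neighbours in the KO order did.

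Other genes of these pathways were taken from 8 lists holding 100 genes, of which 83 were matched and 76 tested. None passed the limma test with all 6 libraries. All KO values were under all WT values in 25 of the 76 (13.4% of all tested genes) and over them in 7 (16.1% of all tested genes). At an unadjusted p under 0.05, 20 were lower (9.68% of all tested genes) and 7 higher (14.7%). Without WT 1, 10 passed as higher (12.8% of all tested genes) and 14 as lower (5.07%). The median log2 difference of the 76 genes was -0.06, against -0.0046 for all tested genes. Over all tested genes, 6510 were higher and 6750 lower in the KO mean.

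The list of further B7, butyrophilin and nectin genes had 7 tested members, Icosl, Cd276, Nectin1, Nectin2, Nectin3, Nectin4 and Tnfrsf14, and no butyrophilin among them. The KO mean was higher in 6 of the 7, with a median log2 difference of 0.48. Nectin3, an adhesion protein that pairs with other nectins, was at 182, 32 and 38 scaled counts in WT against 299, 272 and 192 in KO. Nectin1 was at 122, 62 and 61 against 197, 168 and 171, and Nectin2, a relative of Pvr that binds PVRIG and TIGIT, at 252, 210 and 162 against 332, 315 and 314. For all 3 the groups did not overlap, and WT 1 was the WT library nearest to KO. Over the list, 3 of 7 were separated above and 0 below, against 16.1% and 13.4% of all tested genes. Icosl, the ligand of the costimulatory receptor ICOS, was at 362, 202 and 276 in WT against 400, 379 and 359 in KO, with overlap. Without WT 1 these 4 genes passed, with limma adjusted p-values of 0.001 for Nectin3, 0.0011 for Nectin1, 0.01 for Nectin2 and 0.0261 for Icosl. That made 4 of 7 higher and 0 lower, against 12.8% and 5.07% of all tested genes. Against WT 1 alone the median of the list was 0.27.

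Costimulators of the TNF family were on the same side, with 4 of 4 tested genes higher in the KO mean and a median of 0.40, and all 4 overlapped between the groups. Tnfsf15, a ligand of death receptor DR3, was at 102, 5 and 13 scaled counts in WT against 64, 109 and 92 in KO. Cd40, the receptor for T cell help, was at 203, 134 and 120 against 165, 168 and 209, and Tnfsf14, the ligand LIGHT, at 58, 24 and 33 against 47, 52 and 57. Tnfsf9, the ligand of 4-1BB, was at 132, 123 and 105 against 132, 122 and 138. WT 1 was the highest WT library for each, and against WT 1 alone the median turned to -0.17. Without WT 1, Tnfsf15 and Tnfsf14 passed (limma adjusted p = 0.0054 and 0.044), 2 of 4 as higher and 0 as lower. In that fit 12.8% of all tested genes passed as higher and 5.07% as lower. Cyclic loess lowered the log2 difference of Tnfsf14 from 0.52 to 0.32 and that of Tnfsf9 from 0.13 to 0.07.

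Other inhibitory receptors and ligands of myeloid cells were divided, with 7 of 17 tested genes higher in the KO mean and 10 lower, a median of -0.08. KO values were all under the WT values in 8 genes (13.4% of all tested genes) and all over them in 1 (16.1%). Lair1, an inhibitory receptor for collagen, was at 1547, 1645 and 1820 scaled counts in WT against 1280, 1311 and 1402 in KO. Clec12a, an inhibitory lectin receptor, was at 964, 1054 and 1055 against 813, 829 and 888, and Lgals3, which encodes galectin-3, at 1005, 1217 and 1057 against 856, 874 and 944. Siglecg, an inhibitory sialic acid receptor best known from B cells, was the exception on the higher side, at 44, 8 and 13 in WT against 102, 89 and 69 in KO. All 4, named for the smallest p of the list, passed without WT 1 (limma adjusted p = 0.0189, 0.0179, 0.0385 and 0.0019). Over the 17 tested genes, 1 passed as higher and 6 as lower in that fit, against 12.8% and 5.07% of all tested genes.

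Partners of SIRPA in signalling and engulfment had 15 tested genes, 7 higher and 8 lower in KO on average (median -0.09). Itgb2, the integrin chain CD18, was at 1843, 2219 and 1997 scaled counts in WT against 1564, 1587 and 1762 in KO. Skap2, an adaptor of SIRPA, was at 1139, 1199 and 1221 against 1010, 1073 and 1058. Ptpn6, the phosphatase SHP-1 recruited by SIRPA, was at 1171, 1234 and 1189 against 1037, 1071 and 1108, and the adaptor Fyb at 1585, 1678 and 1750 against 1405, 1497 and 1550. None of these 4, named for the smallest p of the list, overlapped between the groups. Over the list, 7 of 15 were separated below and 2 above, against 13.4% and 16.1% of all tested genes. Without WT 1, Itgb2 and Skap2 passed (limma adjusted p = 0.0315 and 0.0484), while Ptpn6 and Fyb did not (0.0839 and 0.0768). Cyclic loess brought these log2 differences closer to 0, from -0.30 to -0.19 for Itgb2, -0.18 to -0.10 for Skap2, -0.16 to -0.08 for Ptpn6 and -0.17 to -0.07 for Fyb. On the opposite side, Thbs1, which encodes the CD47 ligand thrombospondin-1, was at 3866, 2119 and 2141 in WT against 4234, 4098 and 3899 in KO. Axl, a receptor for engulfment of dying cells, was at 1275, 717 and 972 against 1472, 1398 and 1293. Neither overlapped between the groups, WT 1 was the WT library nearest to KO, and both passed without WT 1 (limma adjusted p = 0.00068 for Thbs1 and 0.0185 for Axl). Against WT 1 alone their log2 differences were 0.08 and 0.12. Over the 15 genes, 2 passed as higher and 2 as lower without WT 1, against 12.8% and 5.07% of all tested genes.

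Regulators of PD-L1 lay lower in the KO mean for 17 of 21 tested genes (median -0.09), where 6750 of all 13260 tested genes were lower. The list was not split by whether a gene raises or lowers PD-L1. The count therefore gives no direction for Cd274. Nlrc5, an activator of MHC class I genes, was at 827, 770 and 783 scaled counts in WT against 653, 606 and 684 in KO. Irf1, the factor that drives Cd274 after interferon gamma, was at 552, 652 and 639 against 498, 502 and 536. Neither overlapped between the groups. Over the list, 7 of 21 were separated below and 1 above, against 13.4% and 16.1% of all tested genes. For Nlrc5 WT 1 was the WT library farthest from KO, unlike for Cd274, and its difference against WT 1 alone was -0.35. Without WT 1, Irf1 passed (limma adjusted p = 0.0168) and Nlrc5 did not (0.0506). Plac8 was on the other side, at 40, 2 and 4 in WT against 80, 89 and 61 in KO, and passed without WT 1 (limma adjusted p = 0.00096). Its log2 difference was 3.17, or 2.08 with a pseudocount of 10. Over the 21 genes, 1 passed as higher and 3 as lower without WT 1, against 12.8% and 5.07% of all tested genes.

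Regulators of CD80 and CD86 were lower in 5 of 7 tested genes, with a median of -0.10, while Cd80 and Cd86 themselves were higher. This list was not split by direction of action either, so the count gives no direction for Cd80 or Cd86. Spi1, which encodes the myeloid factor PU.1, was at 872, 1018 and 943 scaled counts in WT against 775, 805 and 856 in KO, without overlap. Traf6, an adaptor of CD40 and Toll-like receptors, was at 633, 674 and 636 against 608, 620 and 614, also without overlap. Over the list, 2 of 7 were separated below and 0 above, against 13.4% and 16.1% of all tested genes. Cd83, which stabilises CD86 at the surface, was at 293, 406 and 375 against 278, 261 and 313, and Irf8 at 1146, 1241 and 1110 against 1042, 1041 and 1174, both overlapping. Without WT 1, Spi1 and Cd83 passed (limma adjusted p = 0.0457 and 0.0285), 2 of 7 as lower and 0 as higher. In that fit 5.07% of all tested genes passed as lower and 12.8% as higher. Cyclic loess moved the log2 difference of Traf6 from -0.08 to -0.03 and that of Irf8 from -0.10 to -0.03.

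**Figure D4:**
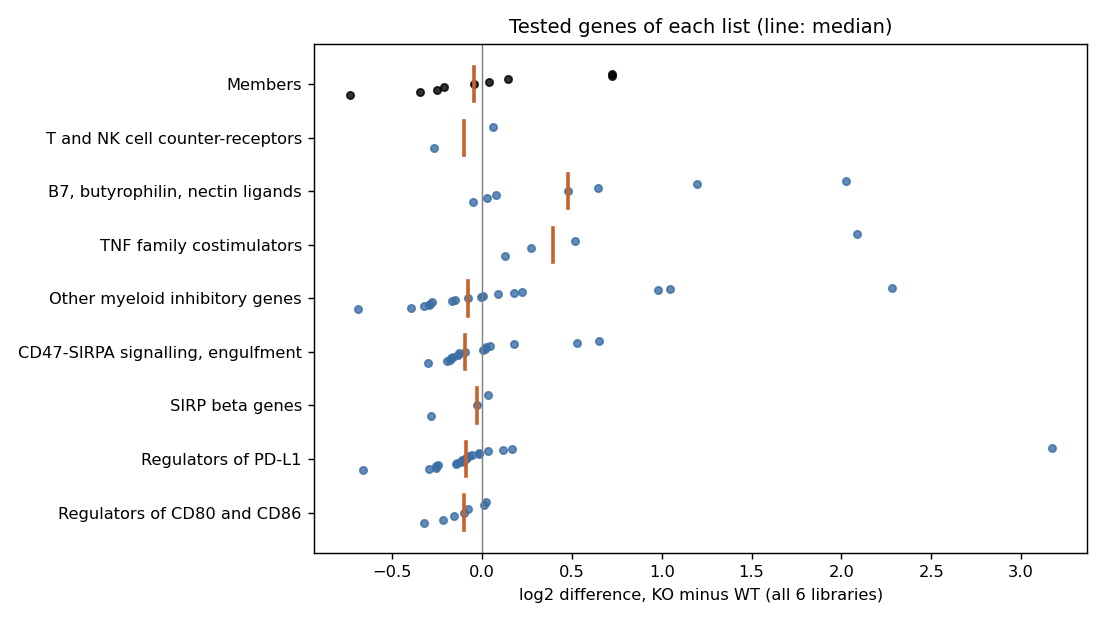
Log2 difference between KO and WT with all 6 libraries (horizontal axis, KO minus WT) for the 9 members and for each tested gene of the 8 lists. Each point is a gene and each vertical line the median of its list. The B7 and nectin ligands (0.48) and the TNF family costimulators (0.40) have medians above 0, and the other lists lie between -0.10 and -0.03.

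Of 12 receptors by which T and NK cells read these ligands, 3 were matched, and Lag3 stayed at 8 or below. Cd28, the costimulatory receptor for CD80 and CD86, was nevertheless at 497, 531 and 512 scaled counts in WT against 421, 437 and 422 in KO. The groups did not overlap, WT 1 lay between the other WT libraries and KO by a small margin, and the log2 difference was -0.27 (limma adjusted p = 0.158), -0.22 against WT 1 alone. Without WT 1 it passed (limma adjusted p = 0.0239). The T cell genes Cd3d, Cd3e and Cd3g were not matched, Trac was at 1 to 31, and Cd4 was at 118 to 188. Which cells the Cd28 RNA came from was not tested. Cd244a, a receptor of NK and some myeloid cells, was at 425, 237 and 352 in WT against 328, 329 and 374 in KO.

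Markers of cell types were also summed within each library. The summed level of 12 fibroblast and marrow stroma markers was 13366, 5980 and 5802 scaled counts in WT against 17805, 16210 and 14130 in KO, a KO mean of 1.91 times WT. KO values were all over the WT values in 7 of the 12, against 16.1% of all tested genes, WT 1 exceeded both other WT libraries in 11, and the highest means were those of Col1a1 and Col1a2. None of the 12 was at 0 in every library. WT 1 lay between the other WT libraries and all KO libraries in this sum, as it did for Cd80, Nectin1, Nectin2 and Nectin3. In the opposite direction, WT 1 lay between them for Cd274, Sirpa, Cd47 and Vsir. For Cd86 it lay inside the KO range. The summed level of 10 macrophage markers was 12684, 13453 and 12569 in WT against 11514, 11802 and 12185 in KO, 0.917 of WT, with 7 of 10 separated below, against 13.4% of all tested genes, and none above. All 10 were present, led by Csf1r and Adgre1. In bulk RNA, fewer cells of a type and less RNA per cell cannot be told apart, and the part of stromal or macrophage content in the differences above was not tested.

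**Figure D5:**
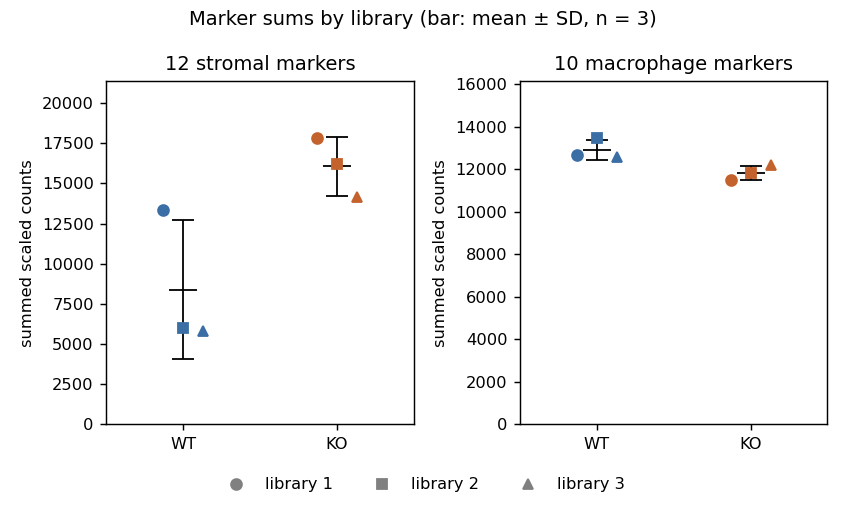
Summed scaled counts (vertical axes, linear from 0) of 12 stromal and 10 macrophage markers in each WT and KO library. Points are libraries and bars are mean ± SD (n = 3). WT 1, at 13366, lies far above the other WT points in the stromal sum, and the KO points of the macrophage sum lie below all WT points.

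The remaining marker sums were small in comparison. Matched dendritic cell markers (3 of 7) summed to 42 to 57 in WT and 54 to 70 in KO, led by Zbtb46 and Batf3, and those of T and NK cells (3 of 8) to 142 to 173 and 176 to 236, led by Cd4 and Trac. B cell markers (2 of 5) summed to 10 to 21 and 29 to 40, led by Cd79b and Ms4a1, neutrophil markers (1 of 7, S100a8) to 20 to 26 and 9 to 15, and carcinoma or epithelial markers (2 of 5) to 2 to 25 and 74 to 101, led by Krt19 and Cdh1. The T and NK, B cell and epithelial sums were higher in every KO library than in every WT library, and the neutrophil sum was lower. These sums rest on few genes. Cd4, Trac and Klrb1c each overlapped between the groups. Krt19 averaged 81.0 of the KO epithelial sum of 84.3, and Cd79b 34.0 of the KO B cell sum of 35.3. Cdh1 and Ms4a1 overlapped. Single genes were separated above in 16.1% and below in 13.4% of all tested genes. No matched marker was at 0 in all 6 libraries.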

How the data were processed

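Stranded mRNA libraries, 3 WT and 3 KO, were sequenced per the labels. The authors deposited 1 table of score values, whole numbers per gene and library that were taken to be read counts scaled per library and rounded, because library totals were nearly equal and the values 6, 17, 29, 40 and 52 never occurred in WT 2. Reads per library are therefore unknown, and no count model or counting interval was used. Per the submitters' processing notes, Trimmomatic 0.39, STAR 2.7.10a, Picard 2.27.4, featureCounts 2.0.3, DESeq2 1.36.0 and mm10 were used, in roles not stated.

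Genes reaching 10 scaled counts in 3 or more libraries were fitted with limma 3.58.1 (R 4.3.3) on log2(value + 1), with an intensity trend and genotype as the only term, two-sided, with Benjamini-Hochberg adjustment at 0.05. Fold changes on this scale understate those of low genes. Single genes had an exact permutation test (scipy 1.17.1). The pipeline was tested on simulated data. Named genes were all members, Hdac2, and up to 4 tested genes with the smallest p of each list, with the 2 highest markers of each cell type. A result that the rule would name is not reported here. Thbs1, Axl, Cd276, Nectin4, Tnfrsf14, Cdh23, Lag3 and the T cell genes were named after their values were seen. Members and lists were chosen with earlier results of these data known. The 15 alternatives covered scaling, filters, pseudocounts, the variance trend, the replicate block and the libraries used.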

Additional observations from a re-analysis of the deposited data

How the results depend on the processing

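With limma at an adjusted p under 0.05, leaving out single libraries gave 0 to 2363 called genes over the whole table, 0 to 5 among the 9 members and 0 to 24 among the pathway genes. All calls came from leaving out WT 1, which leaves 2 WT libraries that differ from KO in sex-linked RNA as well as genotype. The other 14 alternatives called 0 genes, the replicate block among them (0 genes, 0 members). At an unadjusted p under 0.05 the genes numbered 3230 with all libraries, 2744 with the replicate block, 4349 without WT 1 and 826 with WT 1 as the only WT library. The labels do not say whether the replicate numbers pair libraries. Deviations from the group means of same-numbered libraries correlated across genes at 0.534, -0.364 and 0.0239. WT 1 correlated best with KO 1, and WT 2 with KO 3, at 0.618. Deviations of 3 libraries from their mean depend on each other, so these correlations cannot decide whether the numbers pair.

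Of 39 named genes, 29 kept their direction under every alternative that tested them, 15 for most and 1 fewer for Siglecg, Plac8 and Sirpb1b, which a mean of at least 100 leaves out. They included Cd274, Cd80, Cd86, Sirpa, Cd47 and Vsir. With WT 1 as the only WT library the difference turned to -0.025 for Pvr, -0.12 for Havcr2, -0.31 for Cd244a, -0.24 for Tnfsf15, -0.16 for Tnfsf14, -0.18 for Cd40, -0.016 for Tnfsf9 and 0.10 for Sirpb1a. Under cyclic loess it turned to 0.0061 for Lgals9 and -0.13 for Sirpb1c. Leaving out single libraries, it ranged from -0.036 to 0.12 for Havcr2, from -0.17 to 0.25 for Cd244a, from -0.11 to 0.070 for Sirpb1a and from -0.18 to 0.24 for Sirpb1c. The cause was not tested. No scaling moved the median of all genes by more than 0.1. That median does not show shifts tied to abundance. Cyclic loess changed the log2 difference from -0.21 to -0.08 for Sirpa, -0.25 to -0.17 for Cd47 and -0.33 to -0.23 for Lair1. It changed from -0.28 to -0.21 for Clec12a and -0.29 to -0.22 for Lgals3, while Cd80 stayed at 0.72. Reads per library are unknown, which limits what can be said of genes at low values.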

Other observations

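The nearest tested protein-coding genes on each side of the members were examined after the data were seen, to describe whether a difference extended along the chromosome. Plgrkt, which encodes a plasminogen receptor and lies 0.065 kb before Cd274 on the opposite strand, was at 307, 367 and 354 scaled counts in WT against 291, 317 and 290 in KO, and Ric1, on the far side, at 512, 559 and 574 against 583, 563 and 539. Both overlapped between the groups, unlike Cd274. Timmdc1, 2.01 kb after Cd80, was at 182, 170 and 174 in WT against 206, 182 and 186 in KO, with KO 2 level with WT 1. Adprh, 2.86 kb before Cd80, was at 507, 584 and 502 against 473, 474 and 497, separated without overlap and on the opposite side from Cd80. Both neighbours of Vsir were lower without overlap, as Vsir was. Over all tested genes, such separation occurred below in 13.4% and above in 16.1%. Psap, 44.3 kb away, encodes the lysosomal protein prosaposin and was at 2263, 2579 and 2308 against 2001, 2026 and 2136. The nucleoside transporter gene Slc29a3, 339 kb away, was at 935, 1078 and 967 against 817, 817 and 840. Without WT 1, Slc29a3 passed (limma adjusted p = 0.0267), and the other 5 of these 6 genes did not. Both neighbours of Cd47 (Ift57 and Bbx) and both of Sirpa (F830045P16Rik and Stk35) overlapped between the groups, unlike those members, as did both of Havcr2 and both of Lgals9. One neighbour of Cd86, Ccdc58 at a distance of 512 kb, was higher without overlap. One neighbour of Pvr, Ceacam16 at 42.3 kb, was lower without overlap. The other neighbour of each overlapped. Ceacam16 and Sgcd, the neighbour after Havcr2, also passed without WT 1 (limma adjusted p = 0.0267, lower, and 0.0137, higher). No further neighbour did. Distances to neighbours thus ran from 0.065 kb for Plgrkt to 4160 kb for Zfp180, the other neighbour of Pvr, so many are not adjacent. Whether neighbouring genes share a cause of their differences was not tested.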
